A study of Mus musculus with 4 samples.

Results

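The miR-302 and miR-367 cluster is a group of miRNAs cut from 1 primary transcript, and its members were taken by name. The probes mmu-miR-302a, mmu-miR-302b, mmu-miR-302c, mmu-miR-302d and mmu-miR-367 are 5 of the 566 probes for mouse miRNAs among 599 probes in all, the other 33 being probes for viral miRNAs. Levels were measured with the NanoString nCounter assay, which counts molecules through a colour-coded probe for each miRNA. Total RNA came from WT mouse embryonic stem cells (ESCs) of the R1 line and from R1 ESCs in which the 3 DNA methyltransferases Dnmt1, Dnmt3a and Dnmt3b were knocked out (TKO), with 2 samples of each genotype. The comparison asks how the levels of miRNAs differ when DNA methylation cannot be set or kept. Both lines were grown on gelatin in serum with LIF, and the labels add that the cells underwent differentiation for 4 days before RNA was taken, which the methods do not state for these samples. The TKO samples are labelled as 1 line, so an effect of the genotype and one of the line cannot be told apart. The samples are described as biological replicates with no word on separate cultures, and p-values cover only the spread between them, which may be technical.

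A miRNA is cut from a hairpin in its primary transcript by Drosha and then by Dicer, and pairs with target mRNAs mainly through its seed, bases 2 to 8. The cluster is known for its activity in pluripotent cells, where the pluripotency factors Oct4 and Sox2 bind near its start. In mouse it is low in naive ESCs and rises in primed, epiblast-like cells, while the miR-290 to miR-295 cluster, whose leading members carry the same seed as miR-302, dominates in naive ESCs. miRNAs with this seed promote the passage from G1 to S phase. miR-367 has a different seed, which it shares with miR-25, miR-32, miR-92 and miR-363.

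The sequences show which members carry which seed, and hence which miRNAs outside the cluster belong beside them. They are from RefSeq, capitals mark bases 2 to 8, and the arm given is the one that carries the seed, since the probe names give no arm. For miR-302a the whole hairpin is shown, with the 7 letters AAGUGCU in capitals.
mmu-miR-302b-3p: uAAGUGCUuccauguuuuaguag
mmu-miR-302c-3p: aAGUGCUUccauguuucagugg
mmu-miR-302d-3p: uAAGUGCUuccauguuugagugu
mmu-miR-367-3p: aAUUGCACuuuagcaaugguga
mmu-miR-302a hairpin: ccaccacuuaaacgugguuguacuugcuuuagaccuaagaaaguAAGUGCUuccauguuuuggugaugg
The letters AAGUGCU start at base 2 of miR-302b-3p and miR-302d-3p and at base 1 of miR-302c-3p, so the listed miR-302c-3p is shifted by 1 base and its bases 2 to 8 read AGUGCUU. A run of 16 bases, AAGUGCUUCCAUGUUU, is common to miR-302b-3p, miR-302c-3p, miR-302d-3p and the miR-302a hairpin. Aligned on it, miR-302b-3p and miR-302d-3p differed at 3 of 23 positions, and miR-302c-3p differed from each at 2 of 22. Probes for the 4 miR-302 members therefore face targets that differ near the 3′ end, and cross-hybridisation was not tested.

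The same seeds stand outside the cluster in the following miRNAs, sought only among the 442 mouse probes that matched a RefSeq mature name. The first 3 share the seed of miR-302b and miR-302d, and the other 5 that of miR-367.
mmu-miR-291a-3p: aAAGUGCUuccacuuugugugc
mmu-miR-294-3p: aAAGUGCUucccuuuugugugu
mmu-miR-295-3p: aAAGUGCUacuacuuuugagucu
mmu-miR-25-3p: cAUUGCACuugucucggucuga
mmu-miR-32-5p: uAUUGCACauuacuaaguugca
mmu-miR-363-3p: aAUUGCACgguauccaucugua
mmu-miR-92a-3p: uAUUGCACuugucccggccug
mmu-miR-92b-3p: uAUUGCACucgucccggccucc
Beyond the seed the likeness is short. The longest run shared with miR-302b-3p was 11 bases in miR-291a-3p, 10 in miR-294-3p and 7 in miR-295-3p. The longest run shared with miR-367-3p was 7 to 9 bases in the 5 others.

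In GRCm38.p6 the 5 hairpins lie on the plus strand of chromosome 3 within 580 bases, from 127545228 to 127545807, in the order miR-302b, miR-302c, miR-302a, miR-302d and miR-367. Gaps of 61, 65, 59 and 43 bases separate them. The RefSeq annotation places them inside Gm51018, a long non-coding RNA gene on the same strand (127545089 to 127546903), and inside Larp7 on the opposite strand (127536714 to 127553349), which encodes a protein of the 7SK small nuclear RNP. The reference used here lists gene bounds without exons, so exon and intron could not be told apart. The 5 hairpins hold 3 CpG sites in all. Those of miR-302b, miR-302a and miR-367 hold 1 each and those of miR-302c and miR-302d hold 0. So 3 of 5 hold at least 1, near the 66.5% of 1005 mouse hairpins that do. The median over the 1005 was 1 and their mean 1.80, against a mean of 0.6 in the cluster. The precursors of all members are listed by the study as flat, a group it counts as unmethylated at the borders of the hairpin. The study sets flat apart from depleted, its group without methylation, and describes flat loci as methylated alike along their length. For the flat group as a whole it reported no difference in expression between WT and TKO.

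The Gm51018 start lies 139 bases before the miR-302b hairpin on the same strand. Its surroundings, 250 bases before to 50 bases after the start (chr3:127544839-127545138, GRCm38.p6, plus strand), are shown because CpG sites, in capitals, are what the DNMTs methylate.
Gm51018 start region: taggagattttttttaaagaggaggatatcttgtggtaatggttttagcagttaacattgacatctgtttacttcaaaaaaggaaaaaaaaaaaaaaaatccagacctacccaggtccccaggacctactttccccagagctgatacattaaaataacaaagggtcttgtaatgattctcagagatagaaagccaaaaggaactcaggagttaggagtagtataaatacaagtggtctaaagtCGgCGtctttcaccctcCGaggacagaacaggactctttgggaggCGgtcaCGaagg
It holds 5 CpG sites, of which the first is at base 244 and all lie towards the end. The median over 32851 annotated start regions of the same length was 7, and 43.6% had as many or fewer. The Larp7 start region held 30. The letters TATAAA occur 30 bases before the start. Of all start regions, 13.6% hold these letters on either strand anywhere in the window of 300 bases. The octamer ATGCAAAT, an Oct4 motif, was searched on both strands and is not in this window. Only 1.74% of all start regions hold it, so its absence is the usual case, and binding of Oct4 was not tested. Methylation of this region was not analysed here.

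Recovered counts summed to between 511661 and 613666 per sample. The viral probes, for miRNAs of 2 mouse herpesviruses, gave the level of a probe without its target. They averaged 36.7 and 28.7 normalized counts in WT replicates 1 and 2 and 28.2 and 32.5 in TKO replicates 1 and 2. A probe was taken as above background when it passed their mean plus 2 SD, which was 88.1 and 64.4 in WT and 60.4 and 71.0 in TKO. Between 209 and 225 mouse probes passed in the WT samples and between 221 and 241 in the TKO samples. The highest viral probe in WT, mghv-miR-M1-5, averaged 84.9 normalized counts in WT and 68.7 in TKO. Over the viral probes, differences ran from -1.56 on the log2 scale (mcmv-miR-M87-1) to 0.64 (mcmv-miR-M44-1), with a median of 0.012. When they entered the limma fit 0 of 33 passed, with a smallest adjusted p of 0.0965 and 3 at an unadjusted p below 0.05.

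Members of the cluster were higher in TKO cells. Of the 5 members, 4 passed an adjusted p of 0.05 in limma as higher and 0 as lower, against 4.24% of all mouse probes called higher (24 of 566) and 4.24% called lower (24 of 566). Both TKO samples lay above both WT samples for all 5 members, as for 17.3% of all mouse probes, while 36.0% had both TKO samples below both WT samples. The median difference, TKO minus WT with log2 taken of the normalized count + 1, was 1.93 over the members and -0.12 over all mouse probes. The summed signal of the members was 373 and 349 normalized counts in WT and 1649 and 2021 in TKO. This was 0.0634% and 0.0586% of the signal of all mouse probes in WT and 0.327% and 0.351% in TKO. In WT 2 members, miR-302d and miR-367, were above background, and in TKO 3, with miR-302a. The fourth member called, miR-302c, was below background in all 4 samples. The call rests on all 4 samples. With any 1 sample left out, members lost calls, and so did mouse probes over all. Each member stayed higher in TKO, by 3.30 to 3.61 for miR-302a, 2.11 to 2.38 for miR-302d and 1.77 to 2.09 for miR-367. For miR-302c the difference was 1.46 to 1.70 and for miR-302b 0.41 to 0.89.

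**Figure D1:**
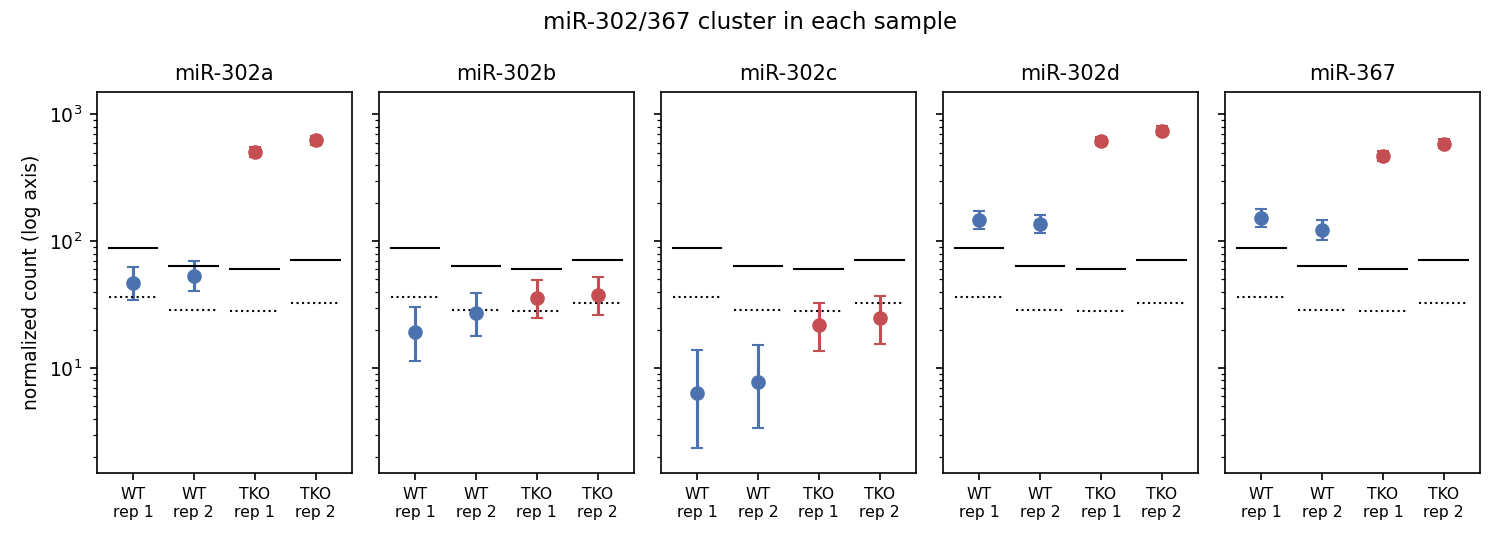
Normalized counts (log axis) of the 5 members in the WT (blue) and TKO (red) samples, with 95% exact Poisson intervals that cover counting error only. The solid bar in each column is the viral mean plus 2 SD and the dotted bar the viral mean: miR-302d and miR-367 lie above the solid bar in all 4 samples, miR-302a only in TKO, and miR-302b and miR-302c in none.

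**Figure D2:**
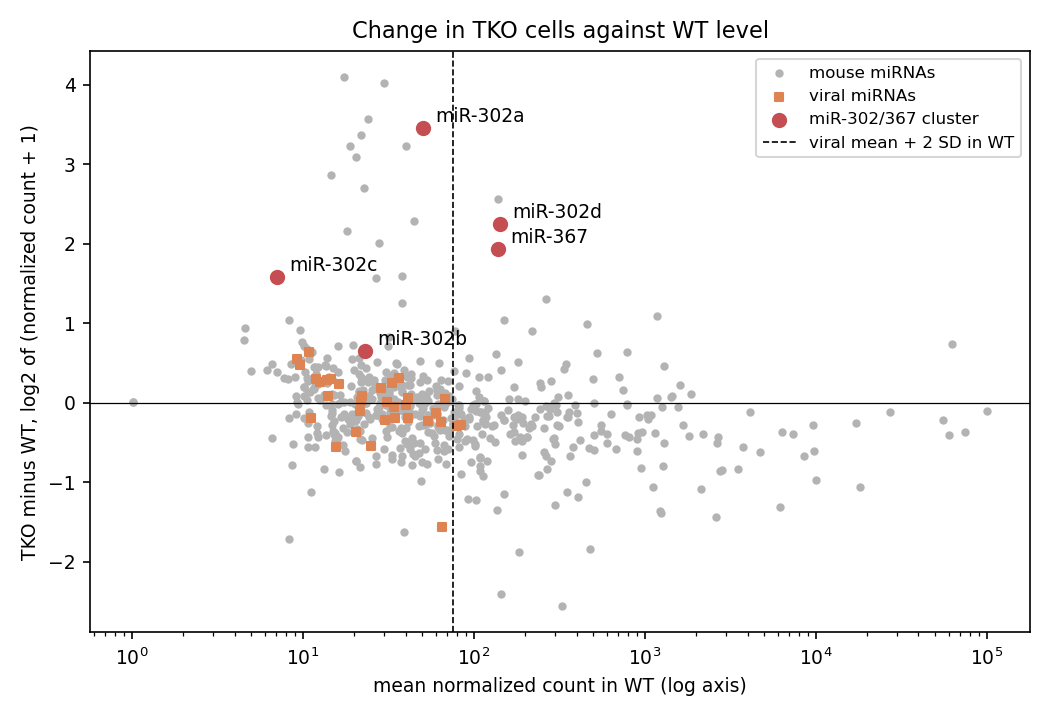
Difference between TKO and WT (log2) against the mean normalized count in WT (log axis) for the 566 mouse probes (grey), the 33 viral probes (orange squares) and the members (red, named), with the WT background threshold as a dashed line. The members lie between 0.65 and 3.46, above the median of all probes at -0.12.

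miR-302d rose in TKO and exceeded every viral probe in each sample. It measured 147.68 and 136.95 normalized counts in WT and 617.68 and 745.04 in TKO. The WT samples lay close together and the TKO samples were far above them. The means were 142.3 ± 7.59 and 681 ± 90.1 normalized counts (SD, n = 2), and the difference was 2.25 on the log2 scale (SE 0.17, 95% interval 1.79 to 2.71, limma adjusted p = 0.00539). This is 4.74-fold on that scale. With the viral mean of each group taken off, the means were 110 and 651 normalized counts, a ratio of 5.94.

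miR-367, the member without the miR-302 seed, rose as well. It measured 153.03 and 123.35 normalized counts in WT and 471.42 and 588.53 in TKO, all above the highest viral probe. The genotypes did not overlap, and the spread within TKO was wider in counts than that within WT. Means were 138 ± 21.0 and 530 ± 82.8 normalized counts (SD, n = 2), a difference of 1.93 (SE 0.21, 95% interval 1.38 to 2.48, limma adjusted p = 0.0144). With the viral mean taken off the ratio was 4.74, and in the fit on such values the adjusted p was 0.0647.

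miR-302a passed from background to far above it. It measured 47.09 and 53.42 normalized counts in WT, where 9 and 5 viral probes were higher, and 503.04 and 624.98 in TKO, where 0 were. Both WT samples were thus within the range of the viral probes and both TKO samples well outside it. The difference was 3.46 (SE 0.19, 95% interval 2.96 to 3.96, limma adjusted p = 0.00423), with only 3 of the 566 mouse probes differing upward by more. Because the WT level was not resolved from background, the TKO mean of 564 was set against the mean WT threshold of 76.3, a ratio of 7.39. This ratio of averages is no lower bound for single samples, since the threshold of WT replicate 1 was 88.1. Such passage was uncommon, with 31 mouse probes below background in WT and above it in TKO and 16 the other way. With the viral mean subtracted in each sample the difference was 5.05 and the adjusted p was 0.0935.

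miR-302c and miR-302b were not above background in any sample. miR-302c measured 6.42 and 7.77 normalized counts in WT and 21.74 and 24.66 in TKO, from 6, 8, 22 and 23 recovered counts. The genotypes did not overlap and the difference of 1.58 passed the test (SE 0.17, 95% interval 1.12 to 2.05, limma adjusted p = 0.0153), yet all values lay under the viral mean of their sample. The counting intervals were 2.36 to 14.0 and 3.35 to 15.3 in WT and 13.6 to 32.9 and 15.6 to 37.0 in TKO. Both WT intervals overlapped that of TKO replicate 1 and neither overlapped that of TKO replicate 2. No level of miR-302c apart from background can be given, and no fold.

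miR-302b measured 19.26 and 27.20 normalized counts in WT and 35.58 and 37.52 in TKO. Both TKO samples were above both WT samples, but between 8 and 21 viral probes were higher than it in every sample. The difference was 0.65 (SE 0.22, 95% interval 0.075 to 1.23) and was not called (limma adjusted p = 0.175). miR-302b is the first hairpin of the transcript and miR-302c the next, so the pair of unresolved members lies at the 5′ end.

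**Figure D3:**
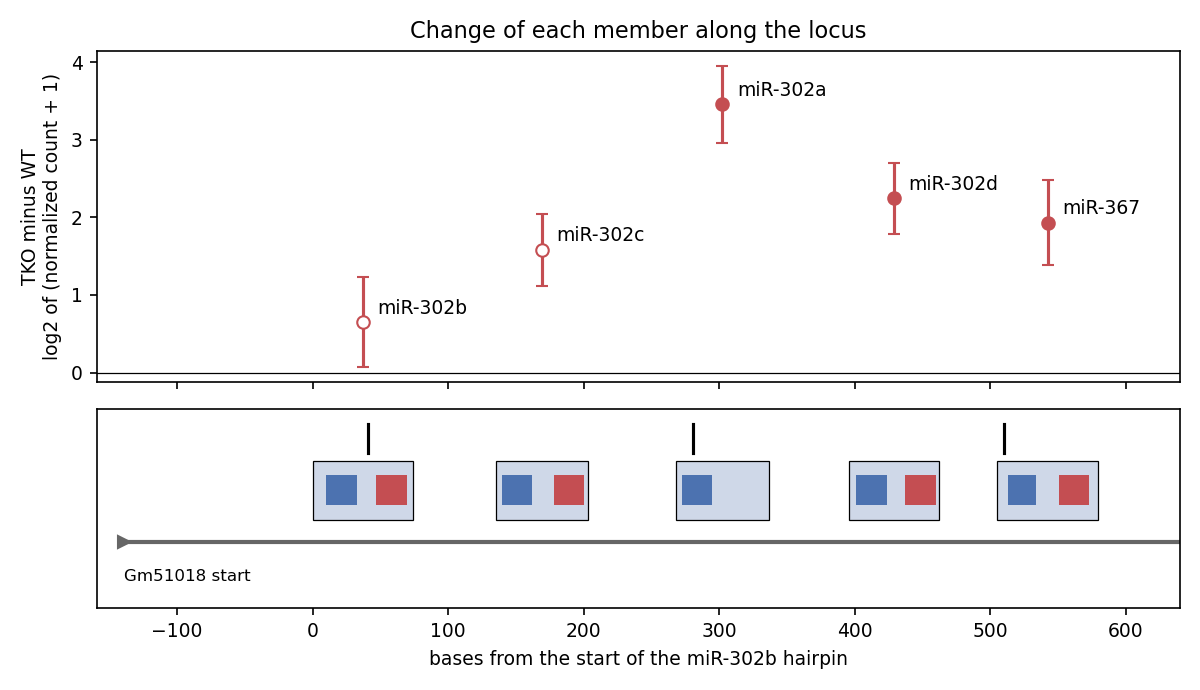
Upper panel, difference between TKO and WT (log2, with 95% limma interval) of each member at the place of its hairpin, in bases from the start of the miR-302b hairpin, with hollow points for members not above background in either genotype. Lower panel, the hairpins as boxes with the 5p (blue) and 3p (red) arms that RefSeq lists, CpG sites as ticks and Gm51018 as a line: the hollow points, miR-302b at 0.65 and miR-302c at 1.58, are the first 2 hairpins, and the greatest difference, 3.46, is that of miR-302a in the middle.

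Ratios between members above background in TKO were taken within each sample. Probe efficiencies differ, so only the change of a ratio between probes is read here. The log2 ratio of miR-302a to miR-302d was -1.63 and -1.34 in WT and -0.30 and -0.25 in TKO, a shift of 1.21 with a pooled SD between replicates of 0.14. miR-302a was not above background in WT, and the part of background in that shift was not tested. The ratio of miR-302d to miR-367, both above background throughout, was -0.051 and 0.15 in WT and 0.39 and 0.34 in TKO. That shift of 0.32 stands beside a pooled SD of 0.10 and an SD of 0.14 from counting alone. Ratios to miR-302b and miR-302c are not given, since neither was above background. No test of these shifts was run, and an exact permutation test of 2 samples against 2 cannot give a two-sided p below 0.333.

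miRNAs of other clusters with the same seed did not rise with miR-302. miR-294, miR-295 and miR-291a-3p come from the miR-290 to miR-295 cluster, the main miRNA source of mouse ESCs. miR-294 averaged 100699 ± 2028 normalized counts in WT and 93552 ± 8079 in TKO (difference -0.11, limma adjusted p = 0.733). miR-295 averaged 74438 ± 168 and 57731 ± 4243 (-0.37, adjusted p = 0.232), and miR-291a-3p 55941 ± 2336 and 47937 ± 1181 (-0.22, adjusted p = 0.434). All 3 means were lower in TKO, and limma called 0 of 3, with 0 at an unadjusted p below 0.05. The log2 ratio of miR-302d to miR-294 was -9.42 and -9.49 in WT and -7.15 and -7.06 in TKO, a shift of 2.35. The shift was 2.61 against miR-295 and 2.47 against miR-291a-3p.

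miRNAs outside the cluster with the seed of miR-367 had lower means in TKO. miR-363, from the X-linked miR-106a to miR-363 cluster, measured 314.63 and 344.81 normalized counts in WT and 59.3 and 51.46 in TKO, a difference of -2.55 (SE 0.16, limma adjusted p = 0.00473) and the lowest of the 566 mouse probes. Its TKO values lay under the background threshold, so its level there was not resolved from background. miR-25, from the miR-106b to miR-25 cluster in an intron of Mcm7, went from 3522 ± 14.4 to 1984 ± 107 normalized counts (-0.83, SE 0.15, adjusted p = 0.0454). miR-32 was at 1285 ± 33.3 and 741 ± 81.0 (-0.80, adjusted p = 0.0616) and was not called. The probes of miR-92a and miR-92b were below background with differences of -0.78 and -0.81. Of the 5 miRNAs, 2 were called lower and 0 higher, all 5 were lower at an unadjusted p below 0.05, and they had a median difference of -0.81. Over all mouse probes 4.24% were called lower, 87 of 566 were lower at an unadjusted limma p below 0.05, and the median was -0.12. The log2 ratios of miR-367 to miR-25 and to miR-32, all above background in every sample, shifted by 2.76 and 2.73.

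**Figure D4:**
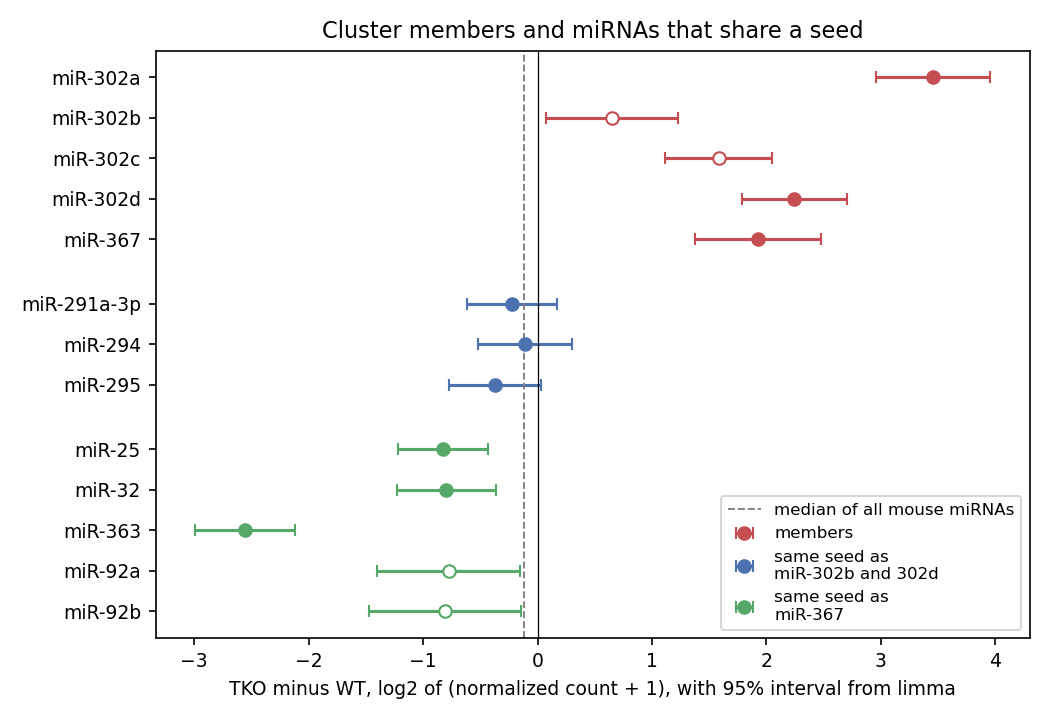
Differences between TKO and WT (log2, points, with 95% limma intervals) of the cluster members and of the miRNAs that share a seed with them, grouped by seed, with hollow points for miRNAs not above background in either genotype. miR-302a, miR-302d and miR-367 lie at 3.46, 2.25 and 1.93, while those outside the cluster lie between -2.55 and -0.11.

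Other clusters and the markers of differentiated cells were counted beside the cluster. Of 11 probes of the miR-290 to miR-295 cluster limma called 0, with 0 at an unadjusted p below 0.05 and a median of -0.22 (from -0.41 for miR-293 to 0.082 for miR-290-3p among those above background), and their sum was 338120 and 332117 normalized counts in WT and 271498 and 295039 in TKO. Of 9 probes of let-7 and miR-98, which accumulate as cells differentiate, 0 were called and 1, let-7g, had an unadjusted p below 0.05, with a median of -0.15 (let-7b 0.50, let-7g -0.58). Their sum was 1634 and 1680 in WT and 1693 and 1345 in TKO, with the genotypes overlapping. In the miR-17 and miR-106b clusters, 8 of 11 probes were called lower and 0 higher, with a median of -1.06. Over all mouse probes 24 of 566 (4.24%) were called lower, and the median was -0.12. Some of their members, miR-17 among them, carry the seed of miR-302 shifted by 1 base, and others have different seeds, with miR-25, miR-92a and miR-363 already described beside miR-367.

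No miRNA of the marker lists was called higher. Over all mouse probes 4.24% were called higher and 4.24% lower, so that few calls could fall in lists of this size. Of 6 epithelial probes (the miR-200 family and miR-205) 3 were called lower, among them miR-205 (-1.39, limma adjusted p = 0.0225). All 6 were lower at an unadjusted limma p below 0.05, as were 87 of the 566 mouse probes. The sum of the 6 was 5619 and 5403 normalized counts in WT and 2982 and 2711 in TKO. Of 4 neural probes 1 was called lower, miR-124, from 499.77 and 457.48 to 132.43 and 134.0 normalized counts (-1.84, adjusted p = 0.00620). Of 6 blood probes 1 was called lower, miR-150 (-1.18, adjusted p = 0.0238), and miR-142-3p stood at 0.63 without passing (adjusted p = 0.0944). No call was made among 5 fibroblast, 4 muscle, 4 endoderm, 2 endothelial and 6 Hox cluster probes. Of these, in that order, 3, 0, 1, 2 and 0 were above background and 1, 0, 1, 0 and 1 had an unadjusted p below 0.05. Among those of these probes that were above background, the widest differences of their lists were miR-199a-3p (fibroblast) at -0.69, miR-194 (endoderm) at -0.52 and miR-126-3p (endothelium) at 0.28. The part that a change in the mix of cells or in the degree of differentiation has in the rise of miR-302 and miR-367 was not tested.

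The miRNAs whose profile over the 4 samples was most like the mean profile of the members were miR-132, miR-878-5p, miR-470, miR-741 and miR-878-3p. Likeness was the Euclidean distance between log2 values centred on each probe's own mean, over 245 probes above background in either genotype, and it was 0.532, 0.564, 0.571, 0.604 and 0.624. Their differences were 1.59, 1.56, 2.16, 2.56 and 2.01, which the choice by likeness to a rising profile brings with it. Except for miR-741, which went from 141.26 and 135.01 to 790.63 and 849.02 normalized counts, they lay under the background threshold in WT, as miR-302a did, and entered the 245 through their TKO level alone. The mean profile took in all 5 members, also miR-302b and miR-302c, which were not above background.

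The members were higher in TKO in every setting that gave them a value. Differences over up to 15 settings were 3.25 to 5.05 for miR-302a, 2.11 to 2.56 for miR-302d and 1.77 to 2.24 for miR-367. They were 0.96 to 1.74 for miR-302c and 0.41 to 2.62 for miR-302b, the last never called. The 2.62 came from subtraction of the viral mean. Both WT samples of miR-302b lay under that mean and were set to a floor of 1, so 2.62 is no measured difference. Fewer samples, or subtraction of the viral mean, took the adjusted p of some members past 0.05.

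**Figure D5:**
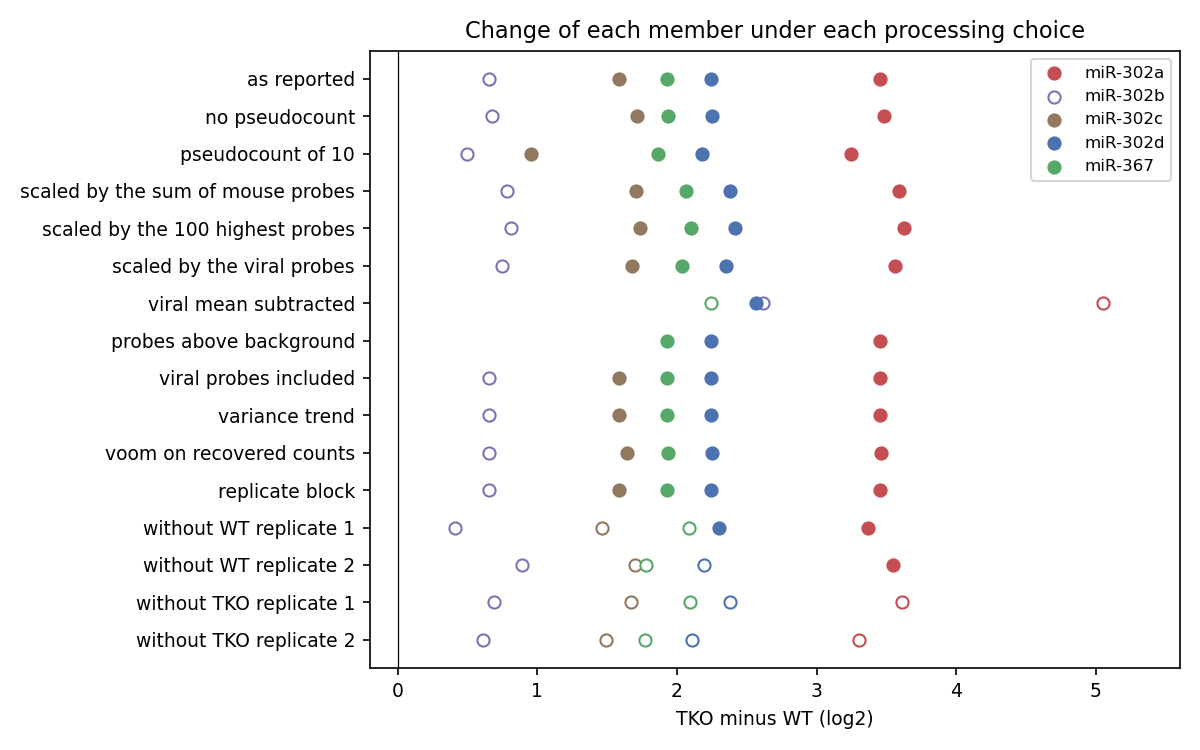
Difference between TKO and WT (log2) of each member as reported and under each alternative processing, with filled points at a limma adjusted p below 0.05 and hollow points otherwise. All points lie above 0, and those of the fits that leave out a TKO replicate are all hollow.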

How the data were processed

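miRNA levels were measured with the nCounter miRNA assay in 2 WT and 2 TKO samples, named so by their titles. The authors normalized the counts with nSolver and deposited log2 values; the version, the handling of background and the normalizing probes are not given in the sources used here. Back on the linear scale, every value of a sample was a whole multiple of 1 step (100% within 0.05; steps of 1.07, 0.971, 0.988 and 1.07), from which counts were recovered. Poisson intervals from them cover counting error only.

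A pseudocount of 1 was added and TKO was compared with WT by limma (lmFit and eBayes, two-sided), with Benjamini-Hochberg adjustment over the 566 mouse probes at a threshold of 0.05. A sample's background limit was set 2 SD over the mean of its 33 viral probes, and a genotype's was the average of its samples. Replicates differed beyond sampling noise (chi-square per degree of freedom 4.94 for WT and 15.4 for TKO).

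The members, marker lists and tests were chosen with earlier results of these data known. The miRNAs named are the members, all found to share a seed with them among probes matched to RefSeq, and the 5 most alike in profile. Named too are the viral probes that are highest or differ most. From each list comes the widest difference in each direction among probes above background. Old names without an arm were matched to the RefSeq arm with the seed, and 442 mouse probes matched a RefSeq mature name. Alternatives covered the pseudocount, scaling, background, filters, the variance model, voom, a replicate block and each sample left out. The code of the fits was tried on simulated counts whose spread was set alike for all probes, which does not test the calls made here. Fits ran in limma 3.58.1 under R 4.3.3, and tables and plots were made with pandas 2.3.3, scipy 1.17.1, numpy 2.4.6 and matplotlib 3.10.9 under Python 3.11.15.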

Additional observations from a re-analysis of the deposited data

How the results depend on the processing

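No alternative reversed the direction of a member. With the viral mean subtracted, miR-302a differed by 5.05 (limma adjusted p = 0.0935) and miR-367 by 2.24 (adjusted p = 0.0647), so that 1 member, miR-302d, was called, and miR-302c gave no value because all its samples lay at the floor of 1. The removal of probes below background took out miR-302b and miR-302c and kept miR-302a through its TKO level alone, so its calls say nothing more of the members. Leaving out 1 sample gave differences of 3.30 to 3.61 for miR-302a, 1.46 to 1.70 for miR-302c, 2.11 to 2.38 for miR-302d and 1.77 to 2.09 for miR-367, in fits where the lone sample of a genotype is assumed to vary like the other genotype. Members called ranged from 0 to 2, mouse probes called higher from 0 to 13 and called lower from 0 to 1. Without TKO replicate 1 or 2, limma called 0 of 566, with 39 higher and 75 lower and with 37 higher and 64 lower at an unadjusted p below 0.05. The number called lower over all mouse probes was 24 as reported, 14 with scaling by the 100 highest probes, 13 with the viral mean subtracted, 51 among probes above background, 57 with a variance trend and 55 with voom. With a replicate block 10 were called lower and 4 members remained called. The numbers were not taken as pairs (correlation of deviations between same-numbered samples -0.094). The median difference of all mouse probes was -0.12 as deposited, 0.0089 when scaled by the sum of mouse probes, 0.042 by the 100 highest and -0.022 by the viral probes, and members called stayed at 4 under each. The members above background were 2, 2, 3 and 3 per sample under each of the 3 thresholds tried. Probes under the viral mean, among them those of miR-302c, cannot be ranked at this signal over background.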
